A study of Mus musculus with 4 samples.

Results

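Cells with Arg1 and Pax8 transcripts but few epithelial, endothelial or cardiomyocyte transcripts were examined at embryonic day (E) 9.5 in the Tbx1 lineage of the mouse pharyngeal apparatus. A barcode was a member when it held at least 3 unique molecular identifiers (UMIs, each counting 1 captured transcript) of Arg1, at least 1 of Pax8, at most 2 of Epcam, at most 2 of Cdh5 and Pecam1 together, and at most 9 of Myl7. This rule found 160 cells among 11719 at E9.5 and 14243 in the whole series. Of these, 153 came from the conditional knockout (cKO) and 7 from the control (Ctrl). They were set against the cells of the same library that met the same limits but held no Pax8 UMI, of which there were 805 in cKO and 385 in Ctrl. Cells of both kinds are called gate cells here.

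The Ctrl embryos were Tbx1Cre/+;Rosa26-GFPflox/+ and the cKO embryos Tbx1Cre/flox;Rosa26-GFPflox/+, all on Swiss Webster. Both genotypes carried Cre at 1 Tbx1 locus, so Ctrl was heterozygous at Tbx1. Pharyngeal apparatus with heart was dissected at E9.5, and the paper's summary of samples adds the back for Ctrl and cKO. Tissues were pooled and live GFP-positive cells were sorted. Any cell with a history of Cre from Tbx1 could thus enter, epithelial cells included. Each group was 1 library, and no difference between groups or cells has a replicate check or a test. All intervals are exact 95% intervals for counting error only, except that differences of shares have Newcombe intervals, and cells of a library are not replicates. A count of 0 is also read against a floor of 3, a tighter limit than the exact interval gives.

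Multilineage progenitors (MLPs) are cells of the cardiopharyngeal mesoderm, the shared source of parts of the heart and of the branchiomeric muscles of the face and neck. TBX1, a T-box transcription factor, is required in this mesoderm for outflow tract and branchiomeric muscle formation. PAX8 is a paired-box transcription factor best known from the thyroid, the kidney and the inner ear. Arg1 encodes arginase and Bdnf a neurotrophin, the secreted ligand of the receptor TrkB.

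Gate cells were 7.19% of the 5453 Ctrl barcodes and 15.3% of the 6266 cKO barcodes. A median of 16666 UMIs per barcode was counted in Ctrl and 15910.5 in cKO, and no barcode had fewer than 4225 UMIs. Members and Pax8-negative gate cells of cKO had similar depth, with medians of 16752 and 17505 UMIs and 3549 and 3776 genes. Mitochondrial transcripts took 1.92% and 1.94% of their UMIs, and ribosomal protein transcripts 32.4% and 30.3%. The E9.5 libraries shared 55 barcodes, among them those of 2 cKO members. Xist and a Y-linked transcript were both found in 18 of the 153 cKO members and in 58 of the 805 Pax8-negative cells. No doublet caller was run, and the part of doublets was not tested.

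Members were chosen on measured counts, so their Pax8 and Arg1 levels are a description. The rule took single molecules as evidence. In cKO, 96 members had 1 Pax8 UMI, 32 had 2, 17 had 3 and 8 had 4, while all 7 Ctrl members had 1 or 2. At the Arg1 limit, 26 cKO members held exactly 3 UMIs, and 29 Pax8-positive cKO cells with 2 fell just outside. Median Arg1 was 6 UMIs in cKO members and 5 in Pax8-negative cells. Pax8 lies at chr2:24420551-24475599 and Arg1 at chr10:24915207-24927470 of GRCm38.

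The question first asked was how often a gate cell held Pax8. A Pax8 UMI was found in 7 of 392 Ctrl gate cells, 1.79% (0.721 to 3.64), and in 153 of 958 cKO gate cells, 16.0% (13.7 to 18.4). The cKO share was higher by 14.2 percentage points (11.3 to 16.8). With each cell thinned to 10000 UMIs, and shallower cells left out, the shares of the same gate cells were 1.08% and 11.5%, and the difference was 10.5 points (7.93 to 12.8). At E8.5, in dissections of the upper body, 1 of 297 Ctrl and 2 of 370 cKO gate cells held Pax8. The difference between genotypes at E9.5 is therefore also a difference between 2 libraries, counted with different gene tables, and these cannot be told apart.

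Free RNA can place a UMI in a cell that does not transcribe the gene, so the share was read beside other cells of the same libraries. Endothelial cells held Pax8 in 3 of 317 Ctrl cells, 0.946%, and in 1 of 69 cKO cells, 1.45%. Cells with more than 9 Myl7 UMIs held it in 0 of 132 Ctrl cells, where the floor of 3 cells allows a share of up to 2.27% and the exact interval reaches 2.76%, and in 3 of 85 cKO cells, 3.53%. Median depths of these cells were 20589 and 16350 UMIs for the endothelial gate, 15644.5 and 17397 for the Myl7 gate, and 17497.5 and 17454.5 for gate cells, in Ctrl and cKO. The Ctrl share of gate cells lay within the range that the endothelial and Myl7 cells allow, whereas the cKO share was above both. Cells with fewer than 3 Arg1 UMIs that met the other limits had median depths of 15966.5 UMIs in Ctrl and 15402.5 in cKO. They held Pax8 in 18 of 3886 Ctrl cells, 0.463% (0.275 to 0.731), and in 96 of 4954 cKO cells, 1.94% (1.57 to 2.36). The gate shares, 1.79% (0.721 to 3.64) in Ctrl and 16.0% in cKO, were higher than these. The part of free RNA was not tested. Epithelial cells with more than 2 Epcam UMIs were Pax8-positive in 28.5% of Ctrl and 32.8% of cKO. Most Pax8-positive barcodes of Ctrl were epithelial, 208 of 236, against 66 of 319 in cKO.

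**Figure D1:**
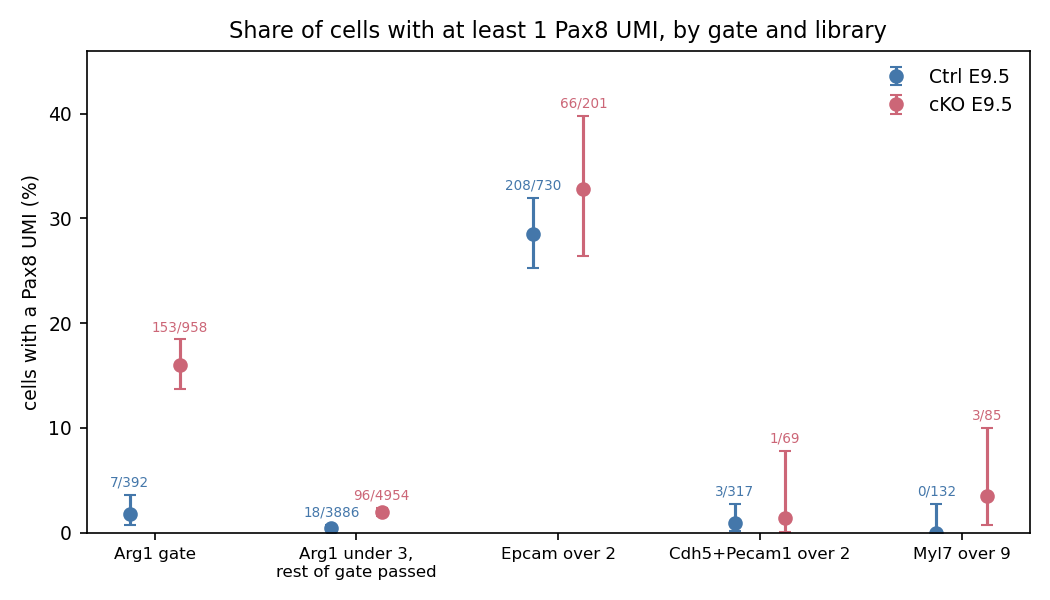
Share of cells with at least 1 Pax8 UMI in percent (vertical axis) in 5 sets of E9.5 cells, for the Ctrl and the cKO library. Points are shares and error bars exact 95% binomial intervals. The gate cells stand at 1.79% in Ctrl and 16.0% in cKO, and the epithelial cells at 28.5% and 32.8%.

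Among cKO cells that met the other limits, the Pax8 share was higher with more Arg1 up to 7 UMIs, with no step at the limit used, and not beyond. It was 1.02% of cells without Arg1, 3.64% at 1 Arg1 UMI, 8.12% at 2, 13.2% at 3 and 22.9% at 7. It was 16.9% at 8, 10.6% at 9 and 18.0% at 10 or more. Cells just outside the rule therefore resembled those just inside it in this respect.

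Across genes, the cKO members differed little from the other gate cells for most transcripts and strongly for a few. Levels are given as UMIs per 1000000 UMIs of shared genes (UPM), and ratios as log2 of member over Pax8-negative level. Of 6793 genes described here, whose levels in both groups averaged 10 UPM or more, with the genes of the rule left out, 31 were at least 2-fold higher in members, 0.456%, and 66 at least 2-fold lower, 0.972%. The median ratio was -0.07.

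Bdnf, one of the genes taken to mark these cells, was among the 10 genes with the highest lower bound. It lies at chr2:109674700-109727043. Its level was 46.6 UPM in cKO members and 12.6 in cKO Pax8-negative cells, against 4.18 in Ctrl Pax8-negative cells, and none of its UMIs was in the 7 Ctrl members. The cKO ratio was 1.88 (1.56 to 2.21). Counted by cell, 68 of 153 cKO members (44.4%) and 118 of 805 Pax8-negative cells (14.7%) held Bdnf, a difference of 29.8 points (21.7 to 38.0), and after thinning 31.0% and 9.43% did. Most members thus had no Bdnf UMI at this depth. The 3 richest members held 15.1% of the member UMIs.

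Several genes of nerve cells or secretory cells were higher beside Bdnf. Ctxn3, which encodes a small brain membrane protein, was at 24.8 UPM in cKO members and 2.67 in Pax8-negative cells, a ratio of 3.21 (2.64 to 3.81). Pcp4, encoding a calmodulin-binding peptide of neurons, was at 182 and 66.4 UPM, a ratio of 1.45 (1.30 to 1.61), and was found in 90 of 153 members. Chrna6, a nicotinic acetylcholine receptor subunit, had a ratio of 1.79 (1.24 to 2.34), and Nefm, a neurofilament subunit, of 1.40 (1.02 to 1.76). Of these, only Pcp4 was in most members. Ctxn3 was also high in epithelial cells of the same library, at 161 UPM in the Pax8-positive and 53.5 in the Pax8-negative ones, whereas Pcp4 was at 42.1 and 28.0 there.

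Outside nerve cell genes, Ppp1r3b, a subunit that directs protein phosphatase to glycogen, was at 27.8 and 7.02 UPM in cKO, a ratio of 1.99 (1.55 to 2.42). Cpa1, a pancreatic carboxypeptidase, had a ratio of 1.58 (1.22 to 1.93), and Itpr1, a calcium channel of the endoplasmic reticulum, of 1.37 (1.02 to 1.70). Ppp1r3b and Itpr1 were spread over 55 and 63 of the 153 members, with 13.3% and 10.9% of their UMIs in the 3 richest cells.

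Among the 10 highest genes, Sst and Neurod1 rested on few cells. Sst, the hormone somatostatin, was at 30.5 and 6.62 UPM, a ratio of 2.20 (1.78 to 2.63), but 23 members held it and 3 of them carried 57.1% of its UMIs. Neurod1, a proneural transcription factor, was at 21.8 and 7.48 UPM, a ratio of 1.54 (1.08 to 2.0), with 5 positive members and 90.8% of its UMIs in 3. Its ratio was -3.07 once cells with any Epcam, Cdh5 or Pecam1 UMI were left out and the Myl7 limit was lowered. The Neurod1 value is thus that of a handful of cells and not of the members at large. Nefm was less concentrated, with 33.7% of its member UMIs in 3 cells, and its ratio was 0.74 with the Arg1 limit at 2 UMIs, 0.92 under the stricter limits on other cell types and 2.29 with the Arg1 limit at 6.

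The 10 highest genes were detected together more often in members than in other gate cells. A median of 3 of the 10 was found per cKO member and of 1 per Pax8-negative cell. At least 3 were found in 82 members (53.6%) and in 110 Pax8-negative cells (13.7%), and none in 5.88% and 36.8%. Because these genes were picked on the same cells, the counts describe their spread and do not support it.

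**Figure D2:**
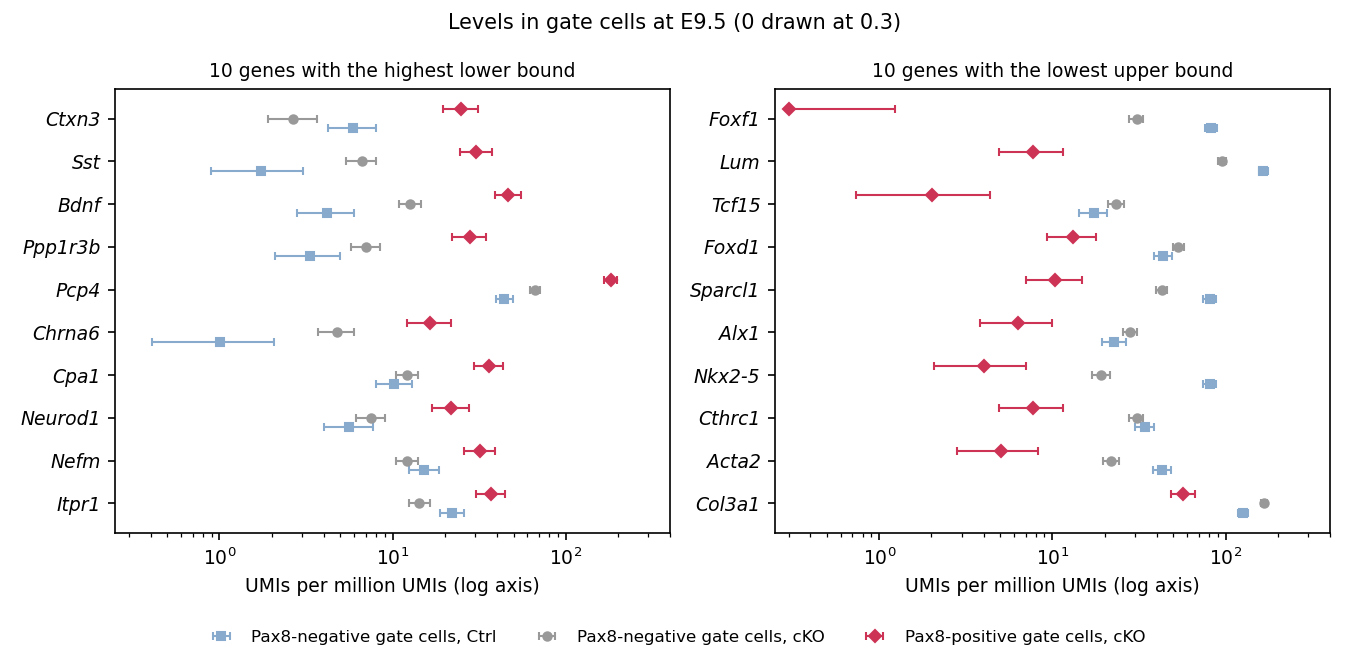
Level in UMIs per 1000000 UMIs (log axis) of the 10 genes with the highest lower bound and the 10 with the lowest upper bound. Shown are Pax8-negative gate cells of both E9.5 libraries and Pax8-positive gate cells of cKO. Points are pooled levels and bars exact 95% Poisson intervals. The 7 Ctrl members are not drawn, and Foxf1 was at 0 in the cKO members.

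The 10 genes with the lowest upper bounds were transcription factors of several mesodermal regions and genes of the extracellular matrix and smooth muscle. Foxf1, a forkhead factor of splanchnic mesoderm, had no UMI in any of the 160 members and 458 in cKO Pax8-negative cells, so that against the floor of 3 UMIs over the group it was at least 30.4-fold lower. The upper bound of its exact interval, -4.62 on the log2 scale, is nearer to 0. Lum, a matrix proteoglycan, was at 7.71 and 95.8 UPM in cKO, a ratio of -3.64 (-4.30 to -3.04). Tcf15, a factor of paraxial mesoderm, had a ratio of -3.53 (-4.99 to -2.39) and Nkx2-5, a cardiac homeobox factor, of -2.24 (-3.21 to -1.42). In cKO, Lum was found in 12.4% of members and 28.0% of Pax8-negative cells, and Nkx2-5 in 6.54% and 13.7%, so that both were in a minority of either.

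The other genes with the lowest upper bounds were Alx1, at -2.14 (-2.89 to -1.48), Acta2, at -2.12 (-2.97 to -1.38), Sparcl1, at -2.04 (-2.61 to -1.52), Foxd1, at -2.03 (-2.53 to -1.57), Cthrc1, at -1.99 (-2.66 to -1.39) and Col3a1, at -1.55 (-1.79 to -1.33). Alx1 and Foxd1 encode transcription factors of facial and other mesenchyme, Acta2 smooth muscle actin, and Cthrc1 and Col3a1 extracellular matrix proteins. Col3a1 was the most abundant of them, at 57.0 and 167 UPM, and it was still present in 58 of 153 members.

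The Ctrl members were too few for more than a side by side reading. At 100 UPM or more, 12 of 1538 genes were at least 2-fold higher in them, 0.78%, and 18 at least 2-fold lower, 1.17%. Of the 31 genes higher in cKO members, 23 had a Ctrl ratio above 0 (74.2%), against 2809 of 6789 described genes (41.4%). For 6 of them the Ctrl interval lay above 0, namely Sst, Ppp1r3b, Igfbp3, Sall1, Upp1 and Tspan15, beside 195 of the 6789 genes (2.87%). Those of Sst and Ppp1r3b rest on 2 and 3 UMIs in the 7 members. Of the 66 lower genes, 55 had a Ctrl ratio below 0 (83.3%), against 3980 of the 6789 (58.6%), and 13 of the 66 had no UMI in Ctrl members, which puts a ratio below 0 whatever the level. For 19 the interval lay below 0, beside 177 of the 6789 (2.61%), and Lum, Foxf1, Nkx2-5 and Col3a1 were among them. None of the 31 or the 66 had an interval on the opposite side. The 7 Ctrl members held 108079 UMIs in all, so most Ctrl ratios could not be placed at this depth.

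The genes that describe MLPs were not higher as a group. Of 22 MLP and cardiopharyngeal genes, 20 were described, with a median ratio of 0.15, 9 intervals above 0 and 8 below, beside 557 above and 1206 below over the 6793 genes. These totals, with the median of -0.07 over all described genes, are also the background for the lists that follow. Intervals below 0 were thus the more common kind. Tbx1 was at 229 UPM in cKO members and 156 in Pax8-negative cells, a ratio of 0.55 (0.43 to 0.68). The counts come from the 3′ end and the position of the floxed part was not given in the sources used here, so they check nothing about the deletion. Isl1, a factor of second heart field progenitors, was found in 54.9% of cKO members and 45.1% of Pax8-negative cells, at a ratio of 0.06 (-0.18 to 0.29). Nrg1, a growth factor ligand of ERBB receptors, was at 20.1 and 11.3 UPM, a ratio of 0.83 (0.38 to 1.27).

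Aplnr, the apelin receptor of early cardiac mesoderm, was at 3.69 and 12.2 UPM in cKO, a ratio of -1.72 (-2.75 to -0.85). In Ctrl it was at 64.8 UPM in members and 76.1 in Pax8-negative cells. The 7 Ctrl members thus held Aplnr where the cKO members held little. Arg1 and Pax8 were set by the rule and cannot check the label, and most members had no UMI of Bdnf, its remaining marker. The cells are therefore called Pax8-positive gate cells here and not MLPs.

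Other Pax genes were low. Of the 8 Pax genes other than Pax8, none was at the level needed to be described, and 3 were at 0 in cKO members. Pax2, a close relative of Pax8, had 1 UMI in cKO members and 3 in Pax8-negative cells. Pax6, a factor of the eye and forebrain, was at 13.1 and 6.82 UPM, a ratio of 0.94 (0.37 to 1.48), and was found in 27 of 153 cKO members.

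Genes of the sine oculis homeobox, Eya and Dach families, which act with Pax factors in placodes and muscle, were mostly higher. Of 11, 5 were described, with a median ratio of 0.96, 4 intervals above 0 and 1 below. Six2 was at 52.3 UPM in cKO members and 25.4 in Pax8-negative cells, a ratio of 1.04 (0.76 to 1.31), and Eya1 had a ratio of 0.96 (0.70 to 1.21). Dach1 had a ratio of -0.49 (-0.98 to -0.03).

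Lists of organs in which PAX8 is known gave few described genes, so that they describe levels more than patterns. Of 14 otic genes, 3 were described, among them Gata3, a zinc finger factor, with a ratio of 1.02 (0.57 to 1.46) that did not hold inside the clusters with most members, described further on, where it was -0.25 (-0.87 to 0.34). In the same list Oc90 was at 0 in cKO members. Of 11 epibranchial and neurogenic placode genes, Six4, at 0.53 (0.09 to 0.95), and Neurod1 were described. Below the level filter, Neurog1 had 38 UMIs in 10 cKO members and 53 in 15 Pax8-negative cells. Phox2a had 43 in 6 and 74 in 12. The 3 richest members held 73.7% of the Neurog1 and 79.1% of the Phox2a member UMIs, so both rested on few cells. None of 9 thyroid and pharyngeal endoderm genes was described, and 6 were at 0 in cKO members. Of 13 intermediate mesoderm and early kidney genes, 4 were described with a median of 0.57, among them Sall1, a zinc finger factor of kidney mesenchyme, at 1.06 (0.79 to 1.33), and 5 were at 0.

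The lists of cardiopharyngeal mesoderm were mixed. The branchiomeric muscle list had 5 of 10 described, a median of 0.24 and 1 interval above 0, that of Ebf1 at 0.72 (0.58 to 0.86). The anterior second heart field list had 5 of 9 described and a median of -0.61, with Msx1 at 0.92 (0.36 to 1.46) against it and 3 intervals below 0. The posterior second heart field list had 5 of 9 described and a median of -0.19, 2 intervals above 0 and 2 below, with Hoxb1 at 0.63 (0.43 to 0.82) and Osr1 at -0.64 (-1.03 to -0.28). Below the level filter, and chosen after its values were seen, Tbx5, a T-box factor of the posterior field, had 0 UMIs in cKO members and 95 in Pax8-negative cells. Aldh1a2, the retinoic acid synthesizing enzyme, had 1 and 214. Of 10 cardiomyocyte genes, Tnni1 was described, at -1.10 (-1.36 to -0.85).

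Somite and mesenchyme genes did not all lie on the same side. Of 9 somitic genes, 5 were described with a median of -0.96. Tbx18 was at -2.01 (-2.90 to -1.24) and Foxc2 at -0.96 (-1.33 to -0.61), but Meox1, a homeobox factor of somites, was at 341 UPM in cKO members and 201 in Pax8-negative cells, a ratio of 0.76 (0.66 to 0.87). Of 11 mesenchyme genes, 9 were described with a median of -0.70 and 6 intervals below 0, among them Pdgfra, a growth factor receptor of mesenchyme, at -1.11 (-1.57 to -0.67). Prrx2 was at 0.42 (0.33 to 0.51). Many of these genes are also among those picked for their ratio.

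FGF genes were mostly higher over all cKO gate cells. Of 16 FGF ligands, receptors and targets, 8 were described with a median of 0.59, and 6 intervals lay above 0 and none below. The ligand Fgf8 was at 0.81 (0.37 to 1.24), the target factor Etv5 at 0.70 (0.40 to 0.99), and the feedback inhibitors Spry2 and Dusp6 at 0.66 (0.43 to 0.89) and 0.60 (0.40 to 0.79). Fgf8 was low in cKO, at 20.5 and 11.6 UPM, against 48.3 UPM in Ctrl Pax8-negative cells. Its direction differed between clusters of cKO gate cells, at -1.12 (-2.32 to -0.05) in cluster 3, which held the most members, and 2.04 (1.09 to 3.05) in cluster 9.

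WNT and BMP genes were mixed. Of 16 WNT genes, 6 were described with a median of -0.55 and 4 intervals below 0, among them Rspo3, a secreted enhancer of WNT signalling, at -2.07 (-3.0 to -1.27). Of 13 BMP genes, 8 were described with a median of -0.08, with Bmp7 at -1.08 (-1.75 to -0.48), Bmp4 at -0.85 (-1.19 to -0.51) and the target Id1 at 0.33 (0.24 to 0.41). Of 14 retinoic acid genes, 6 were described with a median of 0.06, and Rarb, a receptor, was at -1.09 (-1.83 to -0.42). Notch genes had 4 of 12 described and a median of 0.18.

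Neural lists had few described genes. Of 20 neurotrophin and axon guidance genes, 6 were described with a median of 0.15, with Bdnf and the neurotrophin Ntf3, at 0.93 (0.46 to 1.38), above 0 and the ephrin receptor Epha7 at -1.32 (-1.93 to -0.76). Of 13 midbrain, hindbrain and neural genes, 3 were described with a median of -0.17. All 15 S phase genes were described with a median of -0.22 and 9 intervals below 0, and all 15 G2 and M phase genes with a median of -0.03. Glycolysis and hypoxia genes had a median of -0.12 over 12, with 6 intervals below 0 and 2 above. Genes of arginine and polyamine metabolism, Arg1 left out, had a median of -0.28 over 8, with 5 intervals below 0 and none above. Stress genes had a median of 0.00 over 5.

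Markers of other cell types were low in both kinds of cKO gate cells. Summed over their lists, epithelial genes were at 39.2 UPM in members and 59.5 in Pax8-negative cells, with Cdh1 at 0 in members and Krt18 at -1.41 (-1.96 to -0.90). Endothelial genes summed to 71.4 and 88.6 UPM, with 2 described at a median of -0.09, cardiomyocyte genes to 61.3 and 131, neural crest genes to 21.8 and 23.1 with 1 described at -0.78, and blood genes to 10.1 and 5.15 with none described. Blood genes were the only ones of these 5 lists with a higher sum in members. The gate itself limits Epcam, Cdh5, Pecam1 and Myl7.

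Whether members form a group of their own was examined with the 1000 most variable genes, chosen after those of the rule and technical ones were left out. Among 919 cKO gate cells thinned to 10000 UMIs, 145 were members, 15.8%. Of the 15 nearest neighbours of a member, 39.3% on average were members, against 12.7% for a Pax8-negative cell. Members were the majority of neighbours for 51 of the 145, and 4 members had no member among them. The 6 Ctrl members left after thinning had none of each other among their neighbours.

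The cKO gate cells fell into 9 clusters, which are left unnamed, and none was mostly made of members. The highest share was in cluster 3, led by Sst, Pcp4, Ctxn3, Igfbp3 and Cdkn1c, with 56 members of 133 cells, 42.1% (33.6 to 51.0). Cluster 1, led by the mitotic genes Nusap1, Ube2c and Cenpf, with Arl6ip1 and Pcp4, held 49 of 155, 31.6%. Both together held 72.4% of members and 23.6% of Pax8-negative cells.

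Smaller numbers were found elsewhere. Cluster 9, led by Sct, Neurod1, Tubb3, Phox2a and Tlx2, held 10 of 42, and cluster 7, led by Aplnr, Hoxd1, Grem1, Cldn11 and Hoxb1, 15 of 81. Cluster 4, led by Foxf1, Aldh1a2, Wnt4, Wnt2 and Tbx5, held none of 114. Cluster 2, led by Pyy, Tnni1, Alx1, Hand2 and Lmo2, held 5 of 146, cluster 5, led by Tagln, Lum, Myl9, Foxd1 and Sparc, 1 of 101, and cluster 6, led by Fst, Rspo3, Cthrc1, Zic1 and Col9a1, 3 of 92. Cluster 8, led by Plvap, Rapgef5, Kctd12, Cygb and Hey1, held 6 of 55. Bdnf was also found most often in clusters 3 and 1, with a UMI in 37.6% of cells of cluster 3 and 34.8% of cluster 1, against 4.95% of cluster 5.

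**Figure D3:**
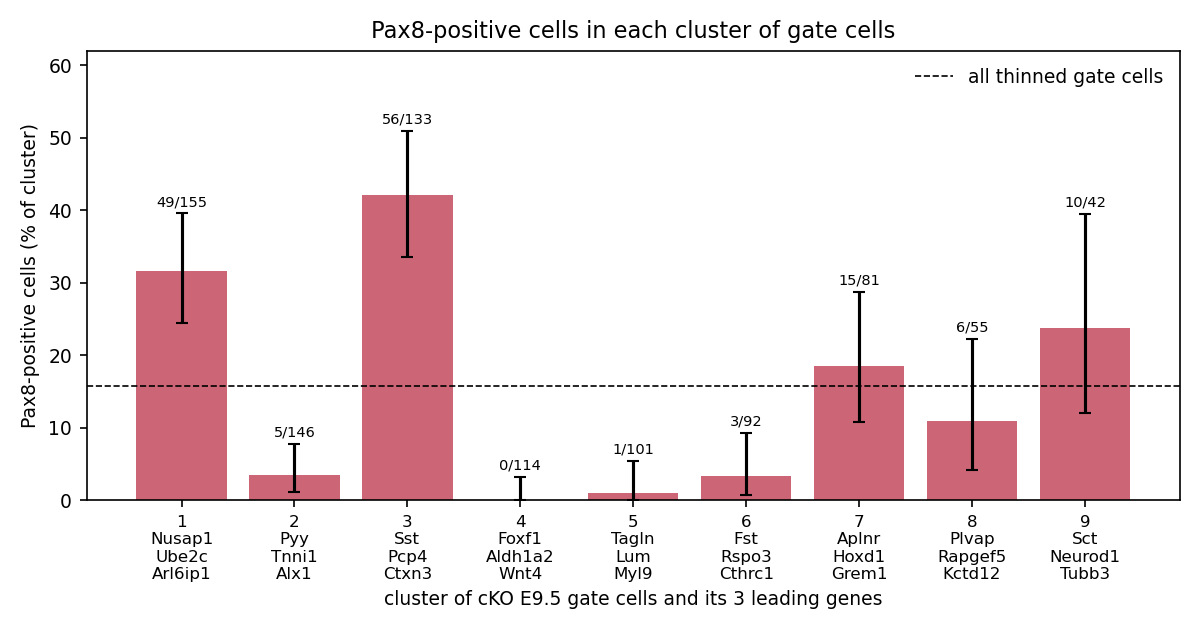
Pax8-positive cells as percent of each cluster of cKO E9.5 gate cells (vertical axis), with the 3 leading genes of each cluster on the horizontal axis; bars are shares and error bars exact 95% binomial intervals. Cluster 3 stands highest at 42.1%, and cluster 4 holds no member.

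Since clusters 1 and 3 held most members, the genes were compared again inside them, an alternative chosen after seeing the data. There were 105 members and 183 Pax8-negative cells. Of 6678 genes, 15 were at least 2-fold higher, 0.225%, and 23 at least 2-fold lower, 0.344%. Of the 31 genes higher over all gate cells, 6 remained past 2-fold and 29 had a ratio above 0. Of the 66 lower ones, 8 remained past 2-fold and 60 had a ratio below 0. Most of these genes were thus under 2-fold inside the clusters, on the same side of 0. The interval lay above 0 for 24 of the 31 and below 0 for 31 of the 66. The share of all 6678 genes on either side of 0 was not counted, so these numbers have no background beside them. The median ratio over the 6678 genes was -0.02. Because the genes were picked on cells that include these members, their sides inside the clusters describe them and are not a separate check.

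Pooled over both clusters, Bdnf had a ratio of 1.09 (0.67 to 1.52), with 49.5% of members and 28.4% of Pax8-negative cells positive. Ctxn3 was at 1.49 (0.81 to 2.18), Sst at 1.57 (1.07 to 2.09) and Pcp4 at 0.36 (0.18 to 0.53). Taken singly, Pcp4 was at 0.68 (0.43 to 0.92) in cluster 1 and -0.07 (-0.33 to 0.18) in cluster 3. Outside them, Bdnf was at -0.68 (-2.66 to 0.83) in cluster 7 and 1.79 (0.29 to 3.40) in cluster 9. Sst was at 0 UPM in members of cluster 9 and 38.2 in its Pax8-negative cells. Among the lower genes, Alx1 was at -1.63 (-2.66 to -0.73) and Col3a1 at -0.66 (-1.06 to -0.27). The interval of Lum, -0.69 (-2.17 to 0.61), included 0, and Sparcl1 was on the other side at 1.02 (-0.11 to 2.16), as was Gata3. Eya1 was at 0.49 (0.13 to 0.84) and Tbx1 at 0.20 (0.03 to 0.37). The intervals of Six2, at 0.36 (-0.002 to 0.73), and Nrg1, at 0.18 (-0.42 to 0.77), included 0.

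**Figure D4:**
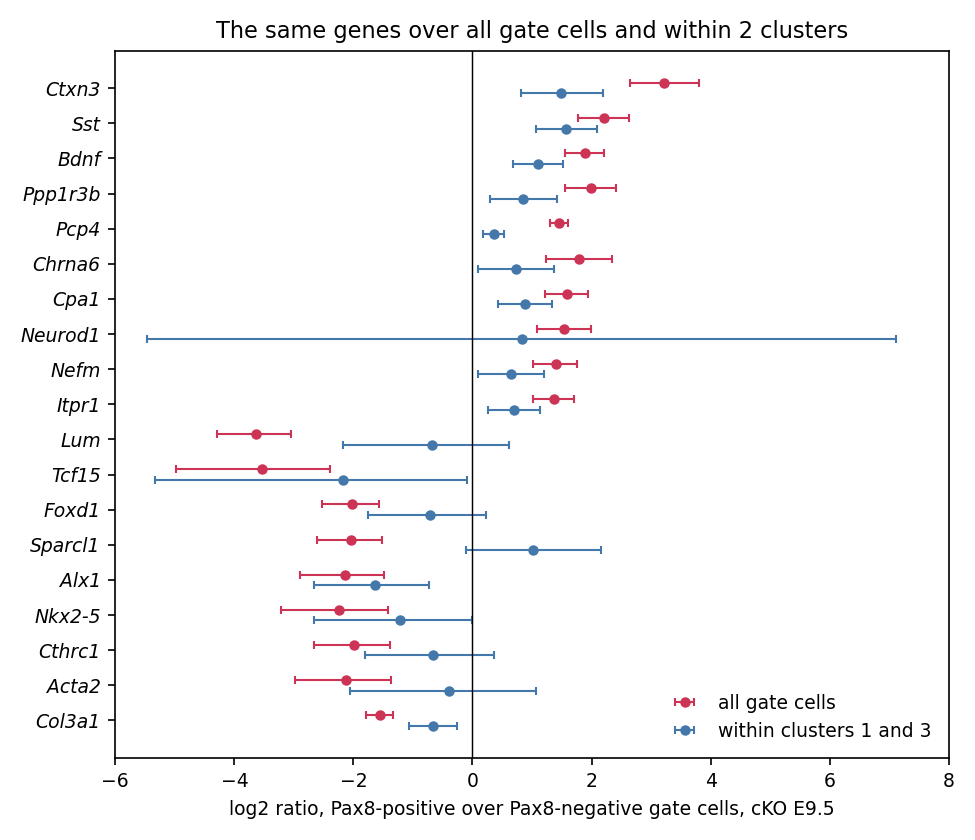
Log2 ratio of Pax8-positive over Pax8-negative cKO E9.5 gate cells (horizontal axis) for the same genes over all gate cells and within clusters 1 and 3; points are ratios of pooled counts and bars exact 95% intervals. Bdnf moves from 1.88 to 1.09, and Sparcl1 from -2.04 to 1.02.

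Levels were also set out by the number of Pax8 UMIs per cell. Bdnf was at 12.6 UPM in cKO cells with no Pax8 UMI, 50.8 with 1, 39.9 with 2 and 40.6 with 3 or more. Sst was at 6.62, 15.6, 51.1 and 54.7 UPM, and Ppp1r3b at 7.02, 20.7, 36.7 and 40.6. Bdnf was thus no higher in cells with more Pax8 UMIs than in those with 1, while Sst and Ppp1r3b had their lowest member level at 1. Sst was nonetheless found in like shares of members, 14.6% with 1 Pax8 UMI, 18.8% with 2 and 12.0% (3 cells) with 3 or more, so its levels there rest on few cells. Col3a1 was lower at each step, at 167, 67.0, 49.5 and 33.5 UPM, and Tbx1 was at 156, 216, 251 and 247.

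**Figure D5:**
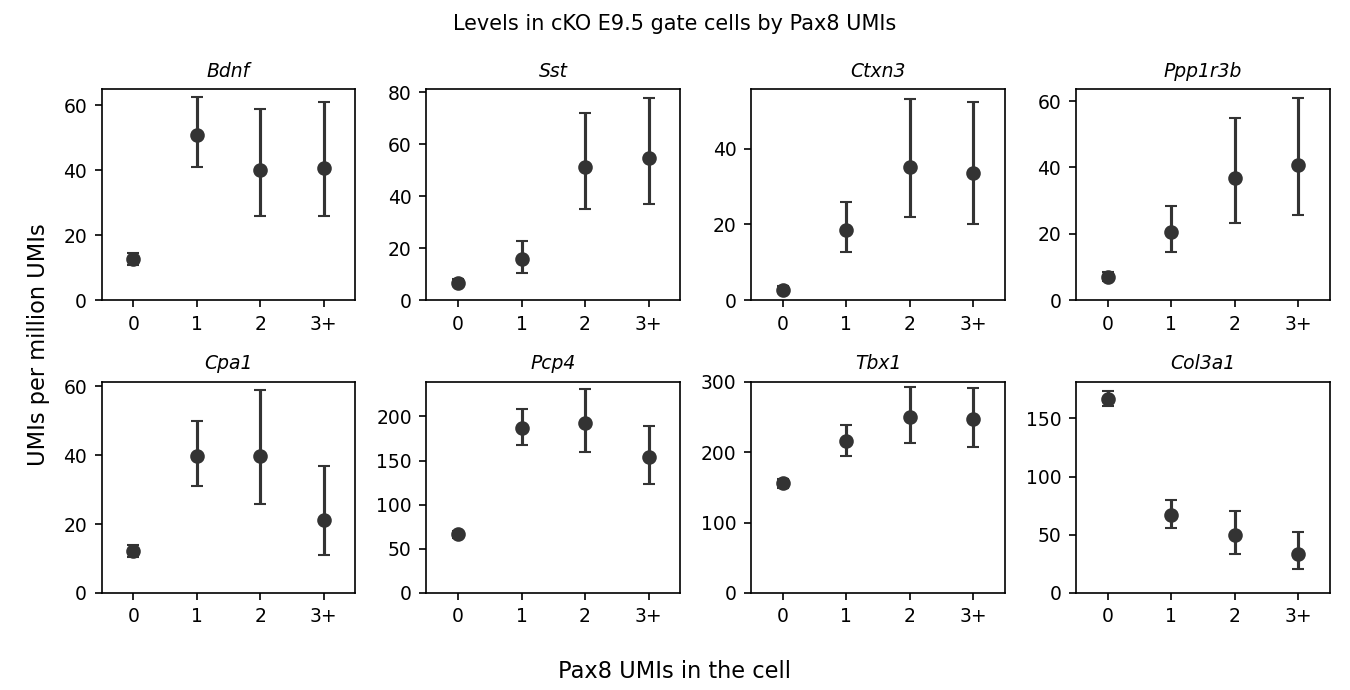
Level in UMIs per 1000000 UMIs (vertical axes, 1 panel per gene) in cKO E9.5 gate cells by their number of Pax8 UMIs (0, 1, 2, or 3 and more); points are pooled levels and bars exact 95% Poisson intervals. Bdnf stands at 12.6 without Pax8 and between 39.9 and 50.8 with it.

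The same genes were read in Pax8-positive cells outside the gate. In cKO cells with fewer than 3 Arg1 UMIs, 96 held Pax8 and 4858 did not. All 10 highest genes were at least 2-fold higher in the positive cells, where 1.7% of 6825 genes were, and 7 of the 10 lowest were at least 2-fold lower, where 1.82% were. Bdnf was at 41.9 and 5.58 UPM there. With no Arg1 UMI at all, an alternative chosen after seeing the data, 39 cells held Pax8 and 3789 did not. There, 10 of 10 were at least 2-fold higher (2.53% of 6803 genes) and 9 of 10 at least 2-fold lower (3.87%), but 9 and 6 intervals lay off 0. Ctxn3 rested on 1 UMI, Foxf1 and Alx1 on 0 UMIs, and Nkx2-5 was at 0.63 (-1.0 to 1.87). Bdnf was at 42.0 and 5.71 UPM in these cells.

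Epithelial cKO cells gave another comparison. Among 66 Pax8-positive and 135 Pax8-negative cells, 3 of the 10 highest genes were at least 2-fold higher, where 0.841% of 7014 genes were. Another 2 were at least 2-fold lower, Neurod1 with 0 and 292 UMIs and Nefm with 1 and 154. Among the higher 3, Chrna6 rested on 2 and 2 UMIs and Ppp1r3b on 7 and 4. Intervals of the 10 highest lay above 0 for 2 and below 0 for 2. Of the 10 lowest, 5 were at least 2-fold lower, where 1.51% of genes were, but only 3 intervals lay below 0. Alx1 rested there on 0 and 1 UMIs. Sst was at 3.69 and 5.53 UPM, and Bdnf at 20.7 and 15.1. In Ctrl cells with few Arg1 UMIs, 18 of 3886 held Pax8, with 6 of the 10 highest genes at least 2-fold higher and 2 at least 2-fold lower. Of the 10 lowest, 6 were at least 2-fold lower and 1 at least 2-fold higher. Intervals lay off 0 for 4 and 5 of these, and over 7397 genes 5.68% were at least 2-fold higher and 4.45% lower.

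Finally, the levels in Pax8-negative gate cells also differed between the libraries for some of the genes named above. The direction was not always that of the member ratio, since Ctxn3 was lower in cKO. The log2 ratio of cKO over Ctrl was 1.60 for Bdnf, 1.94 for Sst, 2.23 for Chrna6 and 1.08 for Ppp1r3b, beside a median of -0.23 over all genes. It was -2.64 for Aplnr, -2.08 for Nkx2-5, -1.35 for Isl1 and -1.14 for Ctxn3. Genotype, library and gene table cannot be told apart in these values. At E8.5, gate cells had 1.41 UPM of Bdnf in Ctrl and 0.81 in cKO, and 1.06 and 0.607 of Ctxn3.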

How the data were processed

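Sorted cells were profiled by droplet single-cell RNA-seq in 4 libraries, 1 per group, of which the E9.5 pair carries the report. The deposited values are unnormalized counts of UMIs for each gene in each barcode, which the authors made with Cell Ranger 3.1.0 and the mm10 genome, with no cell annotation. The gene table of cKO E9.5 listed 31053 genes and that of Ctrl E9.5 27998. Analyses used 27514 shared identifiers, with 99.9% and 99.4% of the UMIs.

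All deposited barcodes were kept and no doublet caller was run. Counts were summed over cells, and ratios carry exact conditional binomial intervals. Genes needed a mean level of 10 UPM and 20 UMIs over both groups (100 UPM in Ctrl). Genes were named as the 10 with the highest lower and the 10 with the lowest upper bound in cKO, up to 4 per list of 29 lists, and Bdnf, Tbx1, Isl1, Aplnr, Nrg1, Pax2 and Pax6. Neighbours and Leiden clusters used 1000 variable genes, 20 principal components, 15 neighbours and a resolution of 1, without the 6 rule genes and 257 technical genes, on cells thinned to 10000 UMIs. Python 3.11.15, numpy 2.4.6, scipy 1.17.1, pandas 2.3.3, scikit-learn 1.9.0, igraph 0.11.9 and leidenalg 0.10.2 were used, and the code was tested on simulated data. Gene coordinates come from a RefSeq table of GRCm38.p6. Members, rule, lists and alternatives were chosen with earlier results of these data known. Values of 1 gene of these lists are not reported here.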

Additional observations from a re-analysis of the deposited data

How the results depend on the processing

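No paired analysis was possible because each group is 1 library. Thinning every cell to 10000 UMIs before applying the limits gave a difference in the Pax8 share of 10.9 points, a difference in Bdnf detection of 12.7 points, 97 genes higher and 199 lower. Requiring 2 Pax8 UMIs gave a share difference of 5.44 points, 58 genes higher, 104 lower and a neighbour share difference of 13.4 points, against 26.6. A level of 30 UPM left 7 genes higher and 17 lower, and no level filter gave 242 and 529. Inside clusters 1 and 3, chosen after seeing the data, the Bdnf difference was 21.1 points, with 15 genes higher and 23 lower. Neurod1 turned to -1.03 after thinning and -3.07 under stricter exclusion of other cell types, and Sparcl1 to 1.02 inside the clusters. The causes were not tested. The other 35 values of these main results moved by less than their intervals or, for counts, less than 1.5-fold, as did 191 single gene values, while 52 gene values moved further without changing sign. Depth limits the 7 Ctrl members most, with 108079 UMIs.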
